A study of Mus musculus with 5 samples.

Results

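The early B cell factors Ebf1, Ebf2 and Ebf3 and the zinc finger proteins Zfp423 and Zfp521 were followed in the sciatic nerves of newborn mice with and without Ebf2. Each gene was found by its symbol in the array annotation and had 1 probe set, so the members were 5 of the 9407 genes named on the array by a single symbol, among 10361 probe sets. Ebf4, the remaining member of the family, was not analysed here. The arrays compared 3 pools of Ebf2+/+ nerves (WT pools 1, 9 and 11) with 2 pools of Ebf2-/- nerves (KO pools 2 and 4), with 12 nerves in each pool. All pups were on a C57Bl6N background, came from matings between heterozygotes and were sampled at postnatal day 2, with no other treatment stated. The labels name no Cre driver or tissue-specific allele, so the loss of Ebf2 was not limited to Schwann cells. The labels say neither which part of Ebf2 the allele lacks nor how many animals or litters went into a pool. The p-values therefore reflect how these pools vary, and part of that variation may be technical.

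Early B cell factors are transcription factors that bind DNA as dimers through a domain with a zinc-binding knuckle, at a palindromic site shared by the whole family. They are known for their part in B lymphocyte commitment, in olfactory and other neurons and in brown fat, and mice without Ebf2 are known to develop a peripheral neuropathy. Zfp423 was first isolated as a partner of an early B cell factor in olfactory tissue, and it also joins SMAD proteins in the response to bone morphogenetic protein (BMP). Zfp521 is its close relative. Each of these zinc finger proteins can hold back the activity of early B cell factors, and each recruits the NuRD chromatin complex.

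All levels below are log2 expression values made by the authors with RMA, and 1 unit is a doubling. Log2 fold changes are KO minus WT (difference of group means) with a standard error (SE) from limma, and a gene was called at an adjusted p below 0.05 over all 10361 probe sets. By that rule 70 probe sets were called (0.676% of those tested), 36 higher in KO (0.347%) and 34 lower (0.328%). The count rested on the setting: after centring each array on its median, or after quantile normalisation, 1 probe set was called, which was lower. An unadjusted p below 0.05 was found for 1483 probe sets (14.3%), which is the share to set beside the unadjusted counts given for gene lists and neighbours. The KO pools did not overlap the WT pools in 30.8% of probe sets, with both above every WT pool in 17.5% and both below in 13.3%. The median log2 fold change over the table was -0.0017. Marker genes of keratinocytes, measured in 10 of 12, had a mean level of 7.14 in WT pool 1, against 9.38 (WT pool 9) and 8.49 (WT pool 11), and of 7.18 and 7.45 in the KO pools. Skeletal muscle genes, measured in 12 of 12, had a mean level of 10.06 in WT pool 1, against 11.62 (WT pool 9) and 11.45 (WT pool 11), and of 10.54 and 10.76 in the KO pools. WT pools 9 and 11 thus stood apart from WT pool 1 in genes of skin and muscle, and the members' differences are therefore also given against WT pool 1 alone.

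Ebf2, the deleted gene, fell in the KO pools. Its level was 11.55 in WT pool 1, 11.14 in WT pool 9 and 11.40 in WT pool 11, against 9.25 in KO pool 2 and 8.74 in KO pool 4. The groups were separated by 1.89 log2 units, from the lowest WT pool to the higher KO pool, and KO pool 4 was the lower of the KO pools. The level was 5.16-fold lower in KO (log2 fold change -2.37, SE 0.19, 95% interval -2.76 to -1.97, limma adjusted p = 4.97e-07). This was the smallest p of the table, and the change was second in size to that of Krt1, a keratin of skin. The interval of the fold change covers the array signal and not the protein, and a signal remained in both KO pools. Its adjusted p passed in 8 of 14 alternative fits. The call was lost when WT pool 1 was left out (-2.27, limma adjusted p = 0.0657). The difference was -2.12 without KO pool 4, -2.62 without KO pool 2 and -2.56 against WT pool 1 alone. Fits that leave 1 pool in a genotype kept no call for any probe set, so only their differences are given.

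**Figure D1:**
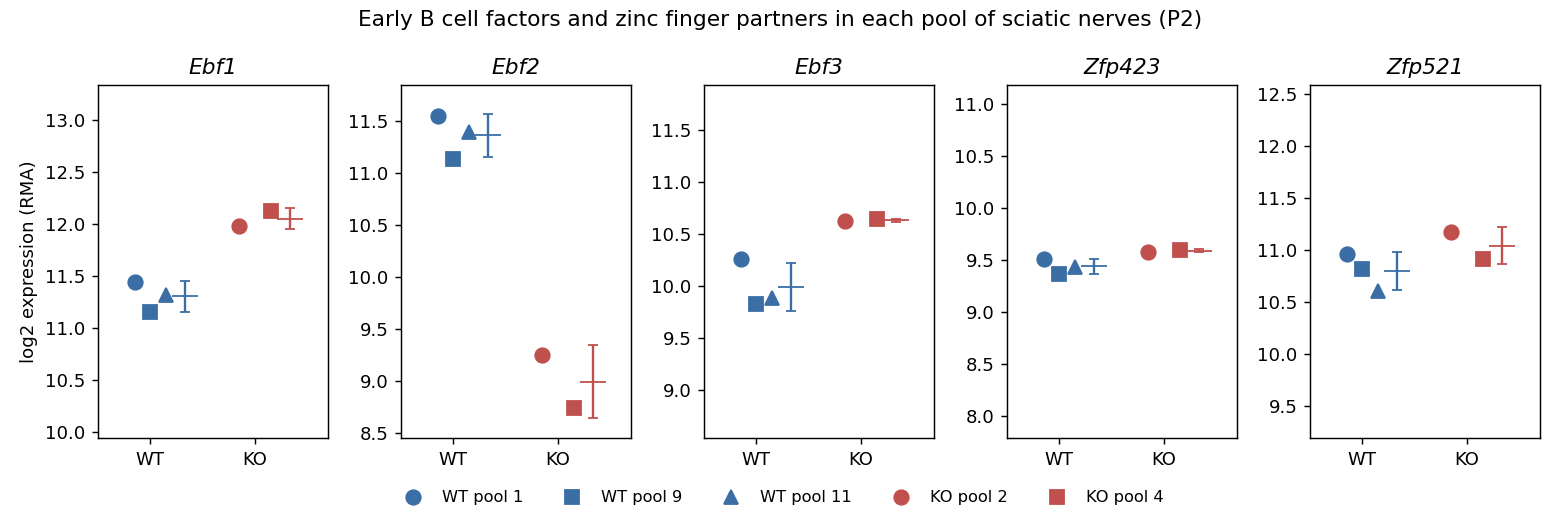
Log2 expression (vertical axis, the same span of 3.4 units in every panel) of each member in each pool, WT in blue and KO in red, with the symbol showing the pool and the bar the mean and SD (n = 3 and n = 2). Ebf2 drops from 11.36 to 9.00, Ebf1 and Ebf3 stand higher in both KO pools than in any WT pool, and the pools of Zfp521 overlap.

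Ebf1, the founding member of the family and a determinant of B lymphocyte identity, rose in the KO pools. Its levels were 11.45 (WT pool 1), 11.15 (WT pool 9) and 11.32 (WT pool 11), against 11.98 (KO pool 2) and 12.12 (KO pool 4). The KO pools stood 0.53 log2 units clear of the highest WT pool, while the WT pools spanned 0.29. The mean went from 11.31 ± 0.15 (SD, n = 3) to 12.05 ± 0.10 (SD, n = 2), a 1.68-fold rise (log2 fold change 0.75, SE 0.17, 95% interval 0.39 to 1.10, limma adjusted p = 0.0445). Each fit without 1 WT pool lost the call, with limma adjusted p from 0.0917 without WT pool 1 to 0.831 without WT pool 9. The difference was 0.605 against WT pool 1 alone, 0.82 without KO pool 2 and 0.67 without KO pool 4. These fits leave 1 pool in a genotype and kept no call for any probe set. The Ebf1 difference was positive in all 14 alternative fits, from 0.605 to 0.82, and the call was kept in 4 of them. With both KO pools above every WT pool, leaving pools out could not turn that sign.

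The region upstream of Ebf1 is shown because the known binding site of the family can be looked for in it. RefSeq promoter windows of 300 bases (assembly GRCm38.p6), reaching from 250 bases before to 50 bases after a start site, were found for 3 of the 5 members, Ebf1, Ebf3 and Zfp423. The 250 bases before the first start site of Ebf1, on the plus strand at chr11:44617850-44618099, read as follows, 5′ to 3′, with no capitals because the motif was not found.
Ebf1 upstream: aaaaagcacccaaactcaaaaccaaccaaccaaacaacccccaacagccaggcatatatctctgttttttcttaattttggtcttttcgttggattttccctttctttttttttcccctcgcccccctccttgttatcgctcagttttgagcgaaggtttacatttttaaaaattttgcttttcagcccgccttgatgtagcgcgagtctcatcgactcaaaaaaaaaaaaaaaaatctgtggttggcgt
The core of the family's palindrome, CCCNNGGG, reads the same on both strands. It was searched alone and with its flanking T as TCCCNNGGG on either strand, each match of which also contains the core. Neither was in the window of either start site of Ebf1. The core was in 13.7% of all 32851 windows and the longer motif in 6.56%. G and C made up 40% of the stretch shown, against a median of 52.4% over the same stretch of all windows.

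Ebf3, which is known from developing neurons, was also higher in both KO pools but was not called. Its levels were 10.25 (WT pool 1), 9.82 (WT pool 9) and 9.88 (WT pool 11), against 10.62 (KO pool 2) and 10.64 (KO pool 4). The KO pools lay within 0.019 of each other and 0.365 above WT pool 1, which was itself the highest WT pool. The log2 fold change was 0.64 (SE 0.18, 95% interval 0.27 to 1.01, limma adjusted p = 0.0933). With WT pool 1 as the only reference the difference shrank to 0.37. Ebf3 passed in 3 of 14 alternative fits. Ebf1 and Ebf3 were the 92nd and 162nd largest positive differences of the table.

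The window of Ebf3 held 1 match to the core, which also matched the longer motif. It began at position -21 from the start site, and the 30 bases around it, on the minus strand at chr7:137314448-137314477, are shown 5′ to 3′ with the core in capitals. The second of the Zfp423 windows held a match to the core alone, at position -28 from its start site, on the minus strand at chr8:87804449-87804478.
Ebf3 match: acagcgccgctCCCGGGGGcttcgagtttt
Zfp423 match: ggctgaggtcaCCCGTGGGccagtgggaag
The first Zfp423 window held neither motif. G and C made up 80.0% of the 250 bases before the start site of Ebf3, 71.6% before the first of Zfp423 and 64.8% before the second. A match is a stretch of letters and shows no binding.

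Zfp423 and Zfp521, the zinc finger partners, were not called. Zfp423 had levels of 9.51 (WT pool 1), 9.37 (WT pool 9) and 9.44 (WT pool 11), against 9.58 (KO pool 2) and 9.60 (KO pool 4). Both KO pools were above every WT pool, but by 0.07 only, and the log2 fold change was 0.15 (SE 0.17, 95% interval -0.19 to 0.50, limma adjusted p = 0.673). Zfp521 had levels of 10.96 (WT pool 1), 10.82 (WT pool 9) and 10.60 (WT pool 11), against 11.17 (KO pool 2) and 10.91 (KO pool 4), so that KO pool 4 lay below WT pool 1. Its log2 fold change was 0.25 (SE 0.18, 95% interval -0.12 to 0.61, limma adjusted p = 0.537). Neither interval shows that the gene was the same in both genotypes. Against WT pool 1 alone the differences of Zfp423 and Zfp521 were 0.08 each, and that of Zfp521 moved between 0.12 without KO pool 2 and 0.38 without KO pool 4.

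**Figure D2:**
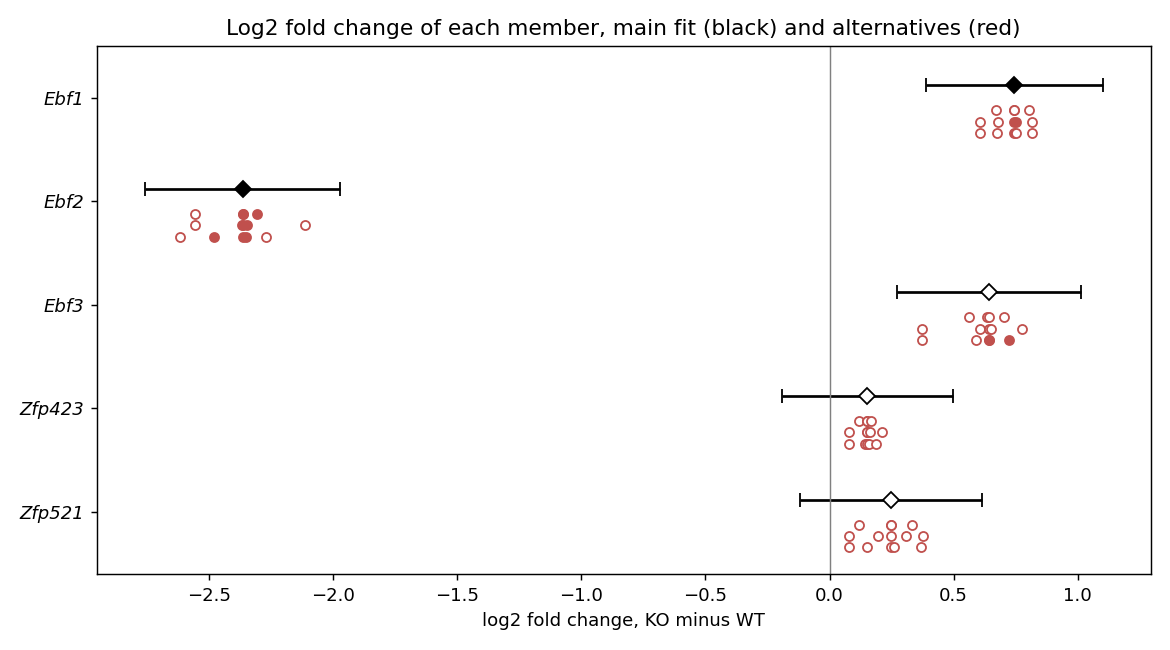
Log2 fold change, KO minus WT (horizontal axis), of each member. Black diamonds give the fit on all 5 pools with its 95% interval, and red circles the 14 alternative fits, with filled symbols where the adjusted p was below 0.05. The circles of Ebf1 run from 0.605 to 0.82 and those of Ebf2 from -2.62 to -2.12, and every circle of Ebf3, Zfp423 and Zfp521 is on the positive side. Fits that change the prior, omit moderation or filter by percentile repeat the difference of the main fit.

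Of the 5 members, 1 rose (Ebf1), 1 fell (Ebf2, the deleted gene) and 3 did not pass. Over all probe sets 0.347% were called higher and 0.328% lower. The median log2 fold change of the 5 members was 0.25. That median was 0.08 with WT pool 1 as the only reference or with WT pools 9 and 11 as a covariate, and 0.15 when WT pool 11 was left out. Of the 4 that were not deleted, Ebf1, Ebf3, Zfp423 and Zfp521 all had positive differences, where 49.8% of the probe sets of the table did. The differences between members within an array do not change with a constant shift of that array, but quantile normalisation can change them. The KO-minus-WT difference of Ebf1 exceeded that of Ebf3 by 0.10, that of Zfp521 by 0.50 and that of Zfp423 by 0.59, and Ebf3 exceeded Zfp423 by 0.49 and Zfp521 by 0.40. These are given as values without a test, since 5 pools can be split into 3 and 2 in only 10 ways. A two-sided exact permutation test that doubles the one-sided p cannot go below p = 0.2 here.

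A dissected nerve holds Schwann cells, axons, fibroblasts, perineurial cells, vessels and macrophages, and in bulk RNA fewer cells of a type and less RNA per cell cannot be told apart. The mean levels of the marker lists for connective tissue and vessels were higher in KO than in WT, with 1 gene called among them. The 6 of 10 measured fibroblast markers were all higher, where 49.8% of the probe sets of the table were. Of them 0 were called by limma and 1 had an unadjusted p below 0.05. They averaged 11.46 to 11.62 in the WT pools and 11.77 to 11.78 in the KO pools. The 7 of 8 measured perineurium markers averaged 10.07 to 10.52 in WT and 10.69 to 10.73 in KO, with 6 higher, 1 lower and 1 called. The called gene was Moxd1, a monooxygenase-like gene (log2 fold change 1.61, limma adjusted p = 0.000122), named after its values were seen. The lower gene was Slc2a1 (-0.43, limma adjusted p = 0.228), with both KO pools below every WT pool, named in the same way. The 10 endothelial markers averaged 10.22 to 10.68 in WT and 10.66 to 10.91 in KO, and the 9 of 10 measured pericyte and smooth muscle markers 10.03 to 10.75 in WT and 10.73 to 10.76 in KO. In these lists 0 genes were called by limma, with 7 of 10 and 5 of 9 at unadjusted p below 0.05, beside 14.3% of the table. The pools of both these lists overlapped between genotypes, with KO pool 4 (10.66) below WT pool 1 (10.68) in the endothelial list, and the difference of the pericyte list from WT pool 1 alone was -0.0054. WT pool 1 was the highest WT pool in both these lists, in the fibroblast and perineurium lists and for every member. The part of these cell types in the differences of Ebf1 and Ebf3 was not tested.

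Relative to the mean of the fibroblast markers on the same array, the KO-minus-WT difference was 0.49 for Ebf1, 0.38 for Ebf3, -0.11 for Zfp423 and -0.01 for Zfp521. Relative to the perineurium markers these differences were 0.34, 0.24, -0.25 and -0.16, and relative to the endothelial markers 0.35, 0.25, -0.25 and -0.15. Relative to the pericyte and smooth muscle markers they were 0.34, 0.24, -0.25 and -0.16. The mean difference of Ebf1 and Ebf3 was thus positive against each of these 4 lists. That of Zfp423 and Zfp521 was negative, but only -0.01 for Zfp521 against the fibroblast markers. The perineurium mean includes Moxd1 (log2 fold change 1.61), and values without Moxd1 were not computed. The median log2 fold change of that list was 0.24, beside 0.25 for Zfp521, so the sign of Zfp521 there depends on how the list is summarised. The KO and WT pools of Ebf1 overlapped when set against the endothelial or the pericyte list, and those of Ebf3 did not. With WT pool 1 as the only reference the signs of Ebf1 and Ebf3 held against all 4 lists, while Zfp423 and Zfp521 were each at -0.02 relative to the endothelial list and at 0.08 relative to the pericyte list. The Schwann cell markers, measured in 6 of 10 with Sox10 and Mbp among them, averaged 11.85 to 11.92 in the WT pools, 11.70 in KO pool 2 and 11.22 in KO pool 4, with 5 of 6 lower and 1 called, Egr2, a transcription factor of myelination (log2 fold change -1.13, limma adjusted p = 0.0181), also named after its values were seen. Relative to the Schwann cell markers the KO-minus-WT difference was -1.93 for Ebf2, 1.18 for Ebf1, 1.075 for Ebf3, 0.58 for Zfp423 and 0.68 for Zfp521. Zfp423 and Zfp521 were thus positive against this list. Markers of macrophages and mast cells, measured in 6 of 12, averaged 9.62 to 9.81 in WT and 9.95 to 9.98 in KO. The 8 B lymphocyte markers, 0 of which were measured, were not analysed here, so the rise of Ebf1 has no value for that lineage beside it.

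**Figure D3:**
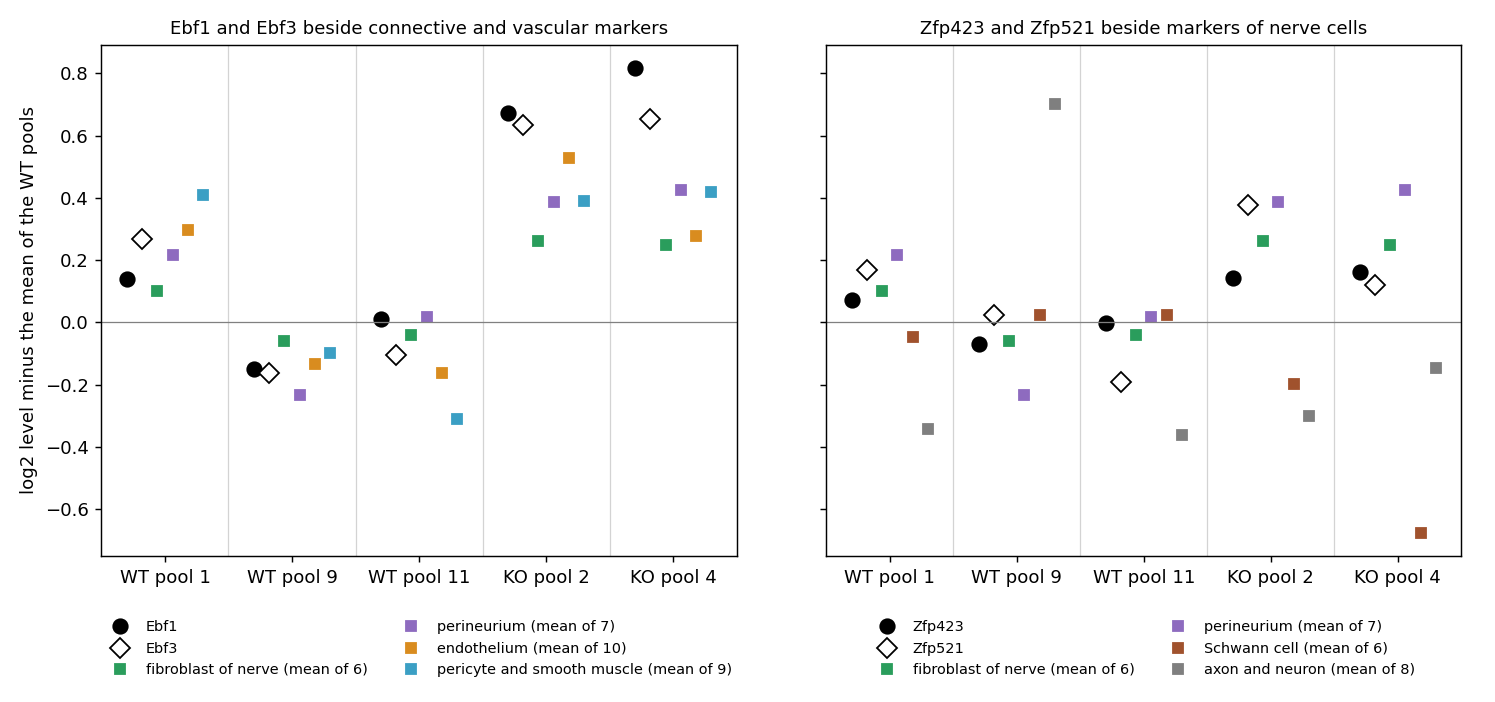
Log2 level of the named genes (black circles and open diamonds) and mean log2 level of marker lists (coloured squares) in each pool, minus the mean of the WT pools (vertical axis), with Ebf1 and Ebf3 on the left and Zfp423 and Zfp521 on the right. Ebf1 and Ebf3 lie above the 4 marker lists in both KO pools, while Zfp423 and Zfp521 lie near the fibroblast list and the Schwann cell list is lowest in KO pool 4.

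Genes whose proteins work with these factors were not called. Of 14 genes listed as DNA-binding and chromatin cofactors of early B cell factors, 6 were measured and 0 were called by limma or had an unadjusted p below 0.05, with 3 higher, 3 lower and a median of 0.01. The largest differences in that list were those of Runx1, a transcription factor of blood and sensory neurons (0.22), Ehmt1, a histone methyltransferase that works in brown fat (-0.20), and Cnot3, a subunit of the CCR4-NOT complex that binds Ebf1 (0.08). Of 9 signalling partners of Zfp423, 6 were measured and 0 called by limma or at unadjusted p below 0.05 (median 0.11), led by Cep290, a ciliary protein (-0.27), Rbpj, the DNA-binding protein of the Notch pathway (0.26), and Smad5, which carries BMP signals (-0.19). Of the 13 NuRD genes, 8 were measured and 0 called by limma, with 2 at unadjusted p below 0.05 (25% of the list beside 14.3% of the table; median 0.02). Gatad2b, a scaffold subunit, was at 0.39, Chd4, the remodelling ATPase, at -0.38 and Hdac2, a histone deacetylase, at -0.28. With WT pool 1 as the only reference the medians of these 3 lists were -0.07, -0.07 and -0.08.

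Target genes of BMP and retinoic acid signalling, the pathways that Zfp423 takes part in, were measured in 15 of 16. They included 1 call, beside 0.676% of the table, and 4 genes at unadjusted p below 0.05, beside 14.3% of the table. Id3, an inhibitor of helix-loop-helix factors that BMP induces, rose. Its levels were 9.25 (WT pool 1), 8.95 (WT pool 9) and 9.10 (WT pool 11), against 9.68 (KO pool 2) and 10.17 (KO pool 4) (log2 fold change 0.83, SE 0.18, limma adjusted p = 0.0380). Its difference from WT pool 1 alone was 0.68. The Id3 difference was positive in all 14 alternative fits, but the call was kept in 4. With both KO pools of Id3 above every WT pool, leaving pools out could not turn that sign. The call was lost with median centring (limma adjusted p = 0.375), quantile normalisation (0.355), no moderation (0.560), the covariate (0.839) and each WT pool left out (0.0859 to 0.831). With 1 KO pool left out the Id3 difference was 0.58 or 1.07. Its relative Id1 was at 0.50 (SE 0.17, adjusted p = 0.178) and Dhrs3, a retinaldehyde reductase that retinoic acid induces, at 0.72 (SE 0.20, adjusted p = 0.0960), and neither passed. Of the 15 genes 10 were higher, where 49.8% of the probe sets of the table were, and 5 lower. Their median was 0.18 beside -0.0017 for the whole table. The median was 0.10 without WT pool 9 or without KO pool 4, 0.11 with WT pool 1 as the only reference and 0.32 above the 50th percentile of levels.

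Genes that early B cell factors are known to regulate in other tissues held 0 limma calls, with 1 gene at unadjusted p below 0.05 in each of 3 lists (3 of 17 measured genes, 17.6%, beside 14.3% of the table). In the B lineage list 3 of 15 genes were measured, with Foxo1, a forkhead factor, at 0.54 (adjusted p = 0.187), Vpreb1, a surrogate light chain gene, at -0.25 and Vpreb2, its relative, at 0.02. In the adipocyte list 9 of 16 were measured, 3 higher and 6 lower (median -0.31). This median turned to 0.11 with WT pool 1 as the only reference or with WT pools 9 and 11 as a covariate. It was -0.06 above the 50th percentile of levels, and -0.15 without WT pool 9 or without KO pool 2. Its largest differences were those of Lpl, which frees fatty acids from lipoproteins (-0.48), Adipoq, the fat hormone adiponectin (-0.41), and Ppargc1a, a coactivator of mitochondrial genes (-0.36). Adipoq was at 6.29 in WT pool 1, 7.39 in WT pool 9, 7.07 in WT pool 11 and 6.39 and 6.61 in the KO pools, so that its difference turned to 0.21 against WT pool 1 alone. Of 12 neural and bone genes linked to Ebf2 or to olfactory sites of the family 5 were measured (median 0.06, and 0.23 with WT pool 1 as the only reference), with Adcy3, the adenylyl cyclase of olfactory neurons, at 0.36, Aldoc, a marker of Purkinje cell stripes, at -0.15 and Neurod1, a neuronal differentiation factor, at 0.09. Levels were below the array medians (8.93 to 9.11) for genes such as Neurod1 (5.09 to 5.32), Vpreb1 (6.3 to 6.9) and Aldoc (7.31 to 8.02).

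**Figure D4:**
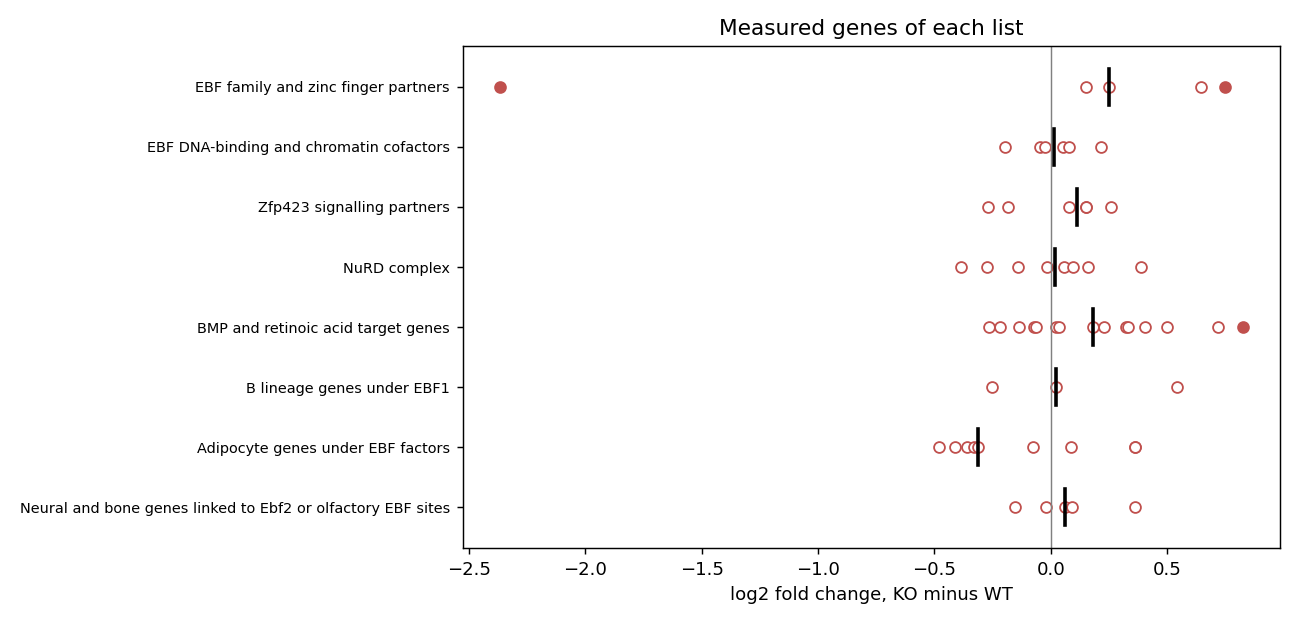
Log2 fold change, KO minus WT (horizontal axis), of every measured gene of 8 gene lists, with filled circles for called genes and a black bar at the median of the list. The 3 filled circles are Ebf2 at -2.37, Ebf1 at 0.75 and Id3 at 0.83, and the medians of the lists run from -0.31 to 0.25.

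The genes whose values ran most like those of each member were found by the root mean square (RMS) difference of the centred log2 values over the 5 pools, among 9406 other genes, as a description of these pools. For Ebf1 they were Pamr1, a secreted protein with a protease-like domain (RMS difference 0.050), Gem, a small GTPase (0.059), and Ntn1, the guidance cue netrin-1 (0.061), against a median of 0.408 over all genes. Ebf3 was the 22nd nearest to Ebf1 (0.10), while Ebf1 was the 93rd nearest to Ebf3. For Ebf3 the nearest were Acsl4, an acyl-CoA synthetase (0.015), Myof, the membrane protein myoferlin (0.026), and P3h2, a prolyl hydroxylase of collagen (0.030). Ebf2 had no match as close: Pmp2, the lipid-binding protein of peripheral myelin, was the nearest at 0.505, followed by the microRNA gene Mir379 (0.603) and the phosphatase gene Dusp15 (0.613). For Ebf2, whose own change was larger, the median over all genes was 1.195. Pmp2 was at 11.53 (WT pool 1), 12.31 (WT pool 9) and 11.67 (WT pool 11), against 10.41 (KO pool 2) and 8.97 (KO pool 4), so its KO pools differed more from each other than those of Ebf2 did.

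Zfp423 varied so little that many genes ran close to it, with P4hb, a protein disulfide isomerase (0.0069), Npc2, a cholesterol-binding protein of lysosomes (0.0077), and Pfn4, of the profilin family (0.010), at the front. For Zfp521 the nearest were Aqp1, a water channel (0.022), Pcdhb20, a protocadherin (0.035), and Tes, the focal adhesion protein testin (0.037). Every probe set of the table had a gap of 0.175 or more from its lowest value to the one below its highest, so genes with less spread are not analysed here. For Zfp423 this gap was 0.214, which put it near that bound.

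The measured genes beside Ebf2 on its chromosome were not called. Among the 4 nearest on each side in the RefSeq order, 0 of 8 were called by limma and 2, Cdca2 and Kctd9, had an unadjusted p below 0.05 (25%, beside 14.3% of the table). Other RefSeq genes lay between these genes and Ebf2, from 1 for Gm6878 to 25 for Adam2. Bnip3l, a mitophagy receptor and the nearest on the side of lower coordinates, read 12.75, 12.66 and 12.79 in the WT pools and 12.71 and 12.49 in the KO pools (log2 fold change -0.13, SE 0.17). The other 3 on that side, Pnma2, Stmn4 and Adam2, lay between -0.14 and -0.06. On the other side Gm6878 was at 0.11, Kctd9, a potassium channel tetramerisation domain gene, at 0.41 (SE 0.18, limma adjusted p = 0.301) and Dock5, a guanine nucleotide exchange factor, at -0.24. Cdca2, which acts on mitotic chromosomes, was at 9.47 (WT pool 1), 8.76 (WT pool 9) and 8.72 (WT pool 11), against 9.70 (KO pool 2) and 9.64 (KO pool 4) (0.69, SE 0.20, limma adjusted p = 0.115), with WT pool 1 close to the KO pools.

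Of the 8 nearest measured genes of the other members 0 were called by limma, with Mki67 and Thg1l at unadjusted p below 0.05 (again 25% beside 14.3%). Between them and their members lay other RefSeq genes, from 3 for Rnf145 and Glrx3 to 19 for Mki67. Beside Ebf3, Mki67, the antigen of dividing cells, was at 0.56 (SE 0.20, limma adjusted p = 0.196), with WT pool 1 (12.49) near the KO pools (12.53 and 12.66), and Glrx3, a glutaredoxin, at 0.04. Beside Ebf1, Rnf145, a ubiquitin ligase, was at -0.22 and Thg1l, an enzyme that adds a guanylate to a transfer RNA, at -0.45, both opposite in sign to Ebf1. Beside Zfp423 were N4bp1 (-0.12) and Cnep1r1 (0.12), and beside Zfp521 were Impact (-0.33) and Kctd1 (-0.25).

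**Figure D5:**
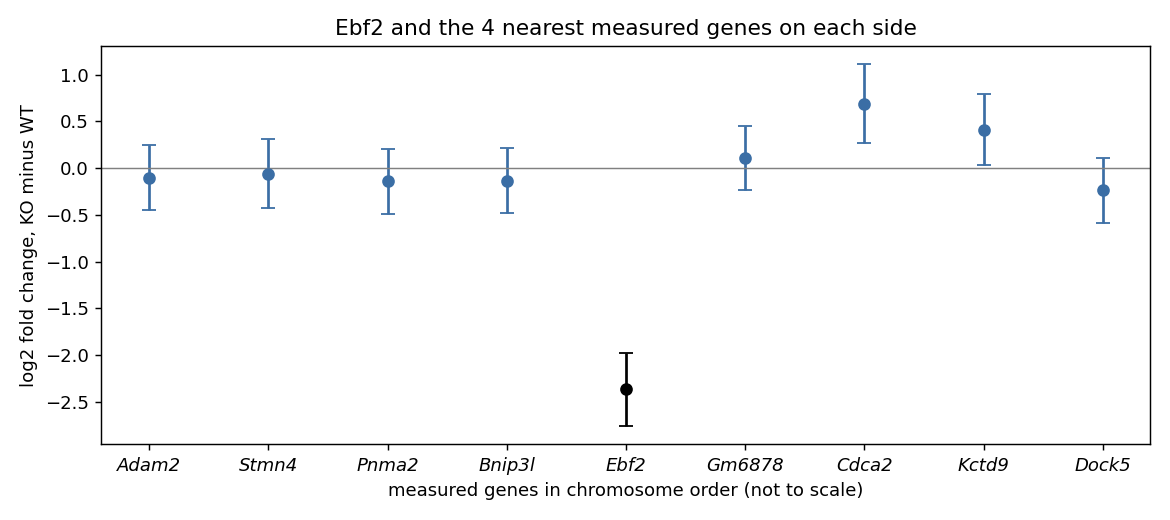
Log2 fold change, KO minus WT (vertical axis), with 95% intervals, of Ebf2 (black) and the 4 nearest measured genes on each side (blue) in chromosome order, not to scale. Ebf2 stands at -2.37, and the 8 neighbours lie between -0.24 and 0.69.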

How the data were processed

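For each pool cDNA was fragmented, end-labelled with biotin and hybridised to 1 Affymetrix array, per the labels' protocols. The deposited values are log2 expression values made by the authors with RMA, per the submitters' processing notes. Of RMA, only the name was found: version and probe set filter not given in the sources used here. Log2 values ran from 2.84 to 14.31, and array medians from 8.93 to 9.11. The platform annotation of 2016 gave 1 symbol to 9411 probe sets, several to 384 and none to 566. A gene with several probe sets was represented by the one with the highest mean.

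Without rescaling, the values were fitted in limma 3.58.1 (R 4.3.3; lmFit, eBayes, no covariates; 3 residual and 17.4 prior degrees of freedom), two-sided, with Benjamini-Hochberg adjustment over 10361 probe sets. The fit was tested on simulated data with independent noise. The planted changes were larger than those of Ebf1, Ebf3 and Id3, so the simulation does not cover changes of their size. The number of arrays limits the precision. Alternatives changed the scaling, the prior, the weights, a filter at the 50th percentile and the arrays used. Members and gene lists were chosen with earlier results of these data known. Named from each list other than the marker lists were every called gene and the 3 with the largest absolute log2 fold change, from the profiles the 3 nearest genes, and from the chromosome order the 4 nearest measured genes on each side of Ebf2 and the nearest on each side of the others. Lists are described without a set test. Sequences and gene order are from RefSeq, assembly GRCm38.p6. For the array design the labels name no build.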

Additional observations from a re-analysis of the deposited data

How the results depend on the processing

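The direction of all 5 members held in all 14 alternative fits, but the calls did not. The prior settings, no moderation and the percentile filter left each difference unchanged, and the covariate repeated the difference from WT pool 1. For Ebf1, Ebf2, Ebf3 and Zfp423, whose KO and WT pools did not overlap, leaving pools out could not turn the sign. The count of 70 called probe sets became 1 with median centring (1232 at unadjusted p below 0.05) and 1 with quantile normalisation (1372), 158 with an intensity trend in the prior, 148 with a robust prior, 268 with array weights and 287 above the 50th percentile, where 5180 probe sets were tested. It was 0 in limma's linear model without moderation (498 at unadjusted p below 0.05), 0 against WT pool 1 alone (127) and 0 with WT pools 9 and 11 as a covariate (286). Leaving out 1 pool gave 0 to 105 limma calls, with 0 without KO pool 2 (2309 at unadjusted p below 0.05) or KO pool 4 (327), 1 without WT pool 9, 6 without WT pool 1 and 105 without WT pool 11. The cause was not tested. Fits that leave 1 pool in a genotype kept no call for any probe set, so a lost call there is not a result about any gene.

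The Ebf1 call was lost with median centring (0.80, limma adjusted p = 0.364), quantile normalisation (0.68, 0.310), no moderation (0.75, 0.560), WT pools 9 and 11 as a covariate (0.605, 0.839) and each WT pool left out (0.67 to 0.82). The Ebf2 call was also lost without moderation (-2.37, 0.560) and with the covariate (-2.56, 0.839). With 1 pool left out Ebf2 ran from -2.62 to -2.12. Ebf3 passed with a robust prior (0.64, limma adjusted p = 0.0422), array weights (0.72, 0.0322) and the percentile filter (0.64, 0.0257). Zfp423 and Zfp521 passed in 0 of 14, and in 0 of 14 at unadjusted p below 0.05. The list medians and Id3 were recomputed in alternatives chosen after seeing the data. No paired analysis was possible because the WT and KO pools share no replicate number.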
